A study of Mus musculus with 8 samples.

Results

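The genes described here encode 8 proteins of the scaffold that organises the axon initial segment and the node of Ranvier: the ankyrins Ank2 and Ank3, the spectrins Sptan1, Sptbn1 and Sptbn4, the adhesion molecules Nfasc and Nrcam, and the microtubule protein Trim46. They were found by matching the Ensembl identifiers of the deposited hippocampal expression table to these symbols. All 8 were among the 20802 genes listed, and all 8 were among the 18865 genes that reached a mean of 10 normalized counts and were tested. RNA came from the hippocampus of 8 male C57BL/6 mice at PND28. The 4 Anesthesia mice had been given ketamine, an anesthetic that blocks NMDA receptors, at 35 mg/kg by intraperitoneal injection on 5 days in a row beginning on PND16. The 4 Control mice were handled identically and injected with saline, although their sample titles call them untreated. The question was which hippocampal transcripts differ about a week after repeated ketamine anesthesia, and each mouse gave 1 library.

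As background, the initial segment is the stretch of axon next to the cell body where action potentials start. Its master organiser is ankyrin-G, the product of Ank3, which binds a periodic lattice of actin and spectrin on its inner side and holds voltage-gated sodium and potassium channels and L1-family adhesion molecules in the membrane. Hippocampal pyramidal and granule neurons build such segments during early development, and their length and position are known to adapt to activity.

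Values are gene counts that the authors estimated from the reads and scaled between libraries, and no longer show depth. The totals were 18702634 to 19231119 normalized counts per mouse. The spacing of low values placed approximately 15400000 to 22200000 reads on the listed genes in each library. The lowest value of any member in any mouse was 556.4 normalized counts, of Trim46. Fold changes are Anesthesia minus Control on the log2(value + 1) scale, with standard errors (SE) from limma fitted to all genes tested. The values are per gene and do not separate isoforms, such as the large ankyrin-G forms of neurons or the neuronal and glial forms of neurofascin. In whole hippocampus, fewer cells of a type cannot be told apart from less RNA per cell.

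In the Anesthesia group 7 of the 8 members had a higher mean log2 value and 1, Nrcam, a lower one, with a median log2 fold change of 0.11 against −0.004 over all genes tested. In the limma comparison 0 members had an adjusted p under 0.05, as did 0 of 18865 genes (0.0%), whereas 1513 genes had an unadjusted p under 0.05. At that unadjusted threshold 4 members were higher (Ank2, Ank3, Sptbn4 and Nfasc) against 897 of all genes (4.75%), and 0 members were lower against 616 genes (3.27%). The groups did not overlap in 2 members, Ank3 and Sptbn4, both higher in the Anesthesia group, as was the case for 530 of all genes (2.81%). The members were chosen with earlier results of these data known, so these shares are descriptive and do not test the set. The differences were small, the largest among the members being 1.25-fold in Nfasc.

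Ank3 (ENSMUSG00000069601, chr10:69398773-70027438 on the plus strand of GRCm38) encodes ankyrin-G. The Anesthesia mice had 13226, 14658, 14979.8 and 14614 normalized counts in replicates 1 to 4, and the Control mice had 12712, 12853, 12521 and 12747. All Anesthesia mice lay above all Control mice, the Control mice were close together, and Anesthesia replicate 1 lay nearest to them. Means were 14369.6 ± 779.6 and 12708 ± 139 (SD, n = 4 each). The log2 fold change was 0.18 (SE 0.052), with an adjusted p of 0.595 from limma and an unadjusted p of 0.00626, which ranked 198 of the genes tested. A two-sided exact permutation test gave p = 0.0286, the smallest that 4 mice against 4 can give.

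Ank2 (ENSMUSG00000032826, chr3:126921612-127499350, minus strand) encodes ankyrin-B, the paralog that sits along the axon beyond the initial segment and in other compartments of the neuron. Its values were 24012, 25038, 26457 and 25438 normalized counts in the Anesthesia mice and 24201, 23226, 22745 and 23078 in the Control mice. The groups overlapped by a single pair, Anesthesia replicate 1 lying below Control replicate 1. The log2 fold change was 0.11 (SE 0.049, limma adjusted p = 0.622), and the exact permutation p was 0.0571.

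The β-spectrins link ankyrins to actin, and Sptbn4 (ENSMUSG00000011751, chr7:27356383-27447686, minus strand) encodes βIV-spectrin, the form recruited by ankyrin-G to initial segments and nodes. The Anesthesia mice had 2501, 2802, 3039 and 2709 normalized counts and the Control mice 2304, 2263, 2252 and 2477. All Anesthesia mice were higher, but the lowest of them, replicate 1, was only just above Control replicate 4. Means were 2763 ± 223 and 2324 ± 104 (SD, n = 4 each), and the groups differed by 0.25 on the log2 scale (SE 0.068). The adjusted p from limma was 0.568 and the unadjusted p 0.00413, and the exact permutation test gave the smallest possible p of 0.0286.

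Sptbn1 (ENSMUSG00000020315, chr11:30099395-30268175, minus strand) encodes βII-spectrin, which forms the lattice along the remaining axon with ankyrin-B. Its values were 27198, 28118, 28383 and 27906 normalized counts in the Anesthesia mice and 27198, 27269, 26500.5 and 26985 in the Control mice. Anesthesia replicates 2 to 4 were above all Control mice, and Anesthesia replicate 1 was level with Control replicate 1. The log2 fold change was 0.05 (SE 0.044, limma adjusted p = 0.774), about as large as its standard error. By exact permutation p was 0.0571, the same as for Ank2. Sptan1 (ENSMUSG00000057738, chr2:29965560-30031451, plus strand) encodes αII-spectrin, the common partner of both β-spectrins in neurons. It ranged from 34704 to 39939.7 normalized counts in the Anesthesia mice and from 34717 to 38617 in the Control mice, and the groups overlapped throughout. The log2 fold change of 0.01 (SE 0.06, limma adjusted p = 0.985) was far smaller than the spread between mice, and its sign changed with the scaling of the libraries.

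Among the adhesion molecules, Nfasc (ENSMUSG00000026442, chr1:132564690-132741797, minus strand) encodes neurofascin, whose neuronal form binds ankyrin-G at the segment and whose glial form joins myelin to the axon at the paranode. The Anesthesia mice had 5424, 4941, 6312 and 6464 normalized counts and the Control mice 3695, 4709, 4981 and 5231. Anesthesia replicates 3 and 4 were highest and Control replicate 1 was lowest, and the groups overlapped in the middle. The log2 fold change was 0.32 (SE 0.117, limma adjusted p = 0.62), the largest among the members, and the exact permutation p was 0.0857. Without Control replicate 1 it was 0.21, and it was highest, at 0.39, without Anesthesia replicate 2. Nrcam (ENSMUSG00000020598, chr12:44328885-44601964, plus strand) encodes another ankyrin-binding L1-family molecule of segments and nodes. Its values were 11864, 11778, 11627 and 12067 normalized counts in the Anesthesia mice and 12838, 12309, 11132 and 11651 in the Control mice. The Anesthesia mice lay inside the range of the Control mice, and the log2 fold change of −0.02 (SE 0.054, limma adjusted p = 0.945) turned positive without Control replicate 1 (0.02).

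Trim46 (ENSMUSG00000042766, chr3:89234177-89246309, minus strand) encodes a protein that bundles parallel microtubules in the proximal axon. The Anesthesia mice had 663, 677.6, 674.5 and 580.2 normalized counts and the Control mice 617.5, 556.4, 630.3 and 599.4. Anesthesia replicates 1 to 3 were above all Control mice, while replicate 4 was below all but 1 of them. The log2 fold change was 0.11 (SE 0.077, limma adjusted p = 0.719) and the exact permutation p was 0.143. Exons of Trim46 share 239 bases with Krtcap2 on the opposite strand, a gene at 232.9 normalized counts on average, so reads in that stretch are uncertain if the counting ignored strand. Antisense RNAs with exons shared by Ank2 (Gm16958) and Sptbn1 (Gm29237) were listed at means of 39.7 and 19.4, small beside their partners. Sptbn4 shares 243 exon bases with a gene on the opposite strand and 134 with a gene on the same strand. Neither of these genes was listed, so their levels are not known.

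**Figure D1:**
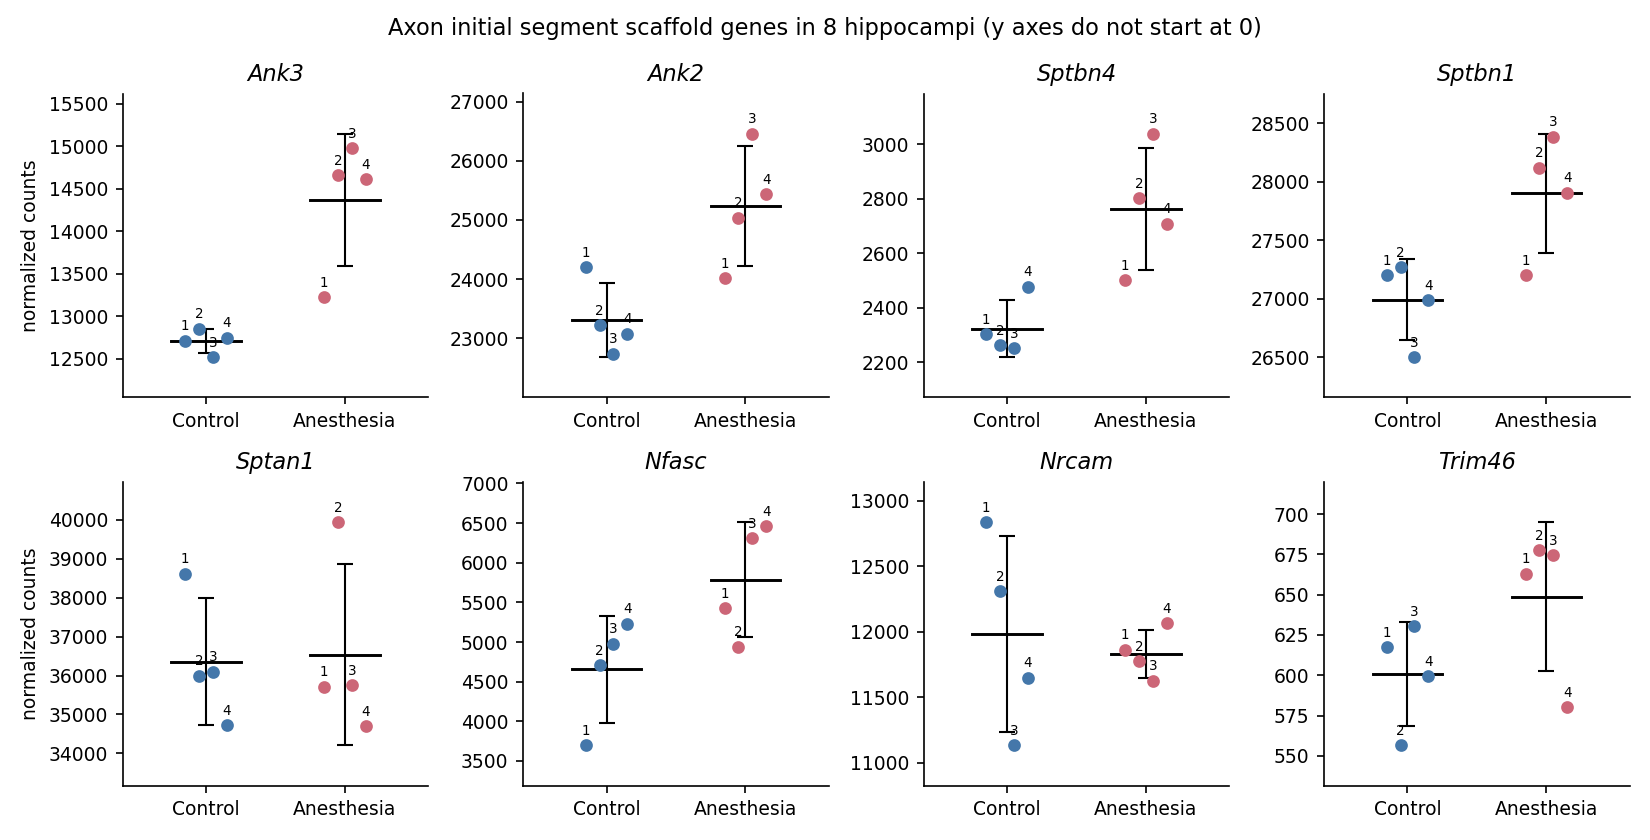
Normalized counts of the 8 genes in each mouse, with the replicate number beside each point, the group mean as a horizontal line and the SD as an error bar (n = 4 per group); y axes do not start at 0. Ank3 and Sptbn4 are the panels without overlap between the groups, and Anesthesia replicate 1 is the lowest mouse of its group for Ank3, Ank2, Sptbn4 and Sptbn1.

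Base composition, transcript length and choroid plexus RNA were set beside these differences. Over all genes tested the median log2 fold change was −0.02 in the fifth of genes with the lowest GC content and 0.05 in the fifth with the highest (at least 55%). Sptbn4, with a GC content of 63.3%, exceeded 99.1% of the genes tested in this respect, Trim46 (59.8%) exceeded 96%, and Nfasc (54.9%) exceeded 79.2%, whereas Ank3 (50%), Ank2 (47.7%) and Nrcam (45.3%) were nearer the middle. Most members are also long, and the longest transcript of Ank2 exceeded that of 99.4% of the genes tested, Ank3 97.7%, Nfasc 97.5%, Sptbn1 96.8%, Sptbn4 96.3%, Sptan1 94.9%, Nrcam 89% and Trim46 53.1%. After a correction of every library for GC content and length of transcript, Sptbn4 had a log2 fold change of 0.10 (unadjusted p = 0.0831, limma) and the groups overlapped. For Ank3 it was 0.10 (unadjusted p = 0.0451, limma) with groups still apart, for Nfasc 0.22 (unadjusted p = 0.0751, limma) and for Ank2 0.03 (unadjusted p = 0.501, limma). For Trim46 it was 0.06 (0.055), and the median of the 8 members was 0.04 against −0.009 over all genes tested. In that fit 1 member was higher at an unadjusted p under 0.05, against 703 of all genes (3.73%), and Sptbn1 (−0.009) and Sptan1 (−0.06) turned negative. How much of each difference belongs to base composition or to length was not tested.

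**Figure D2:**
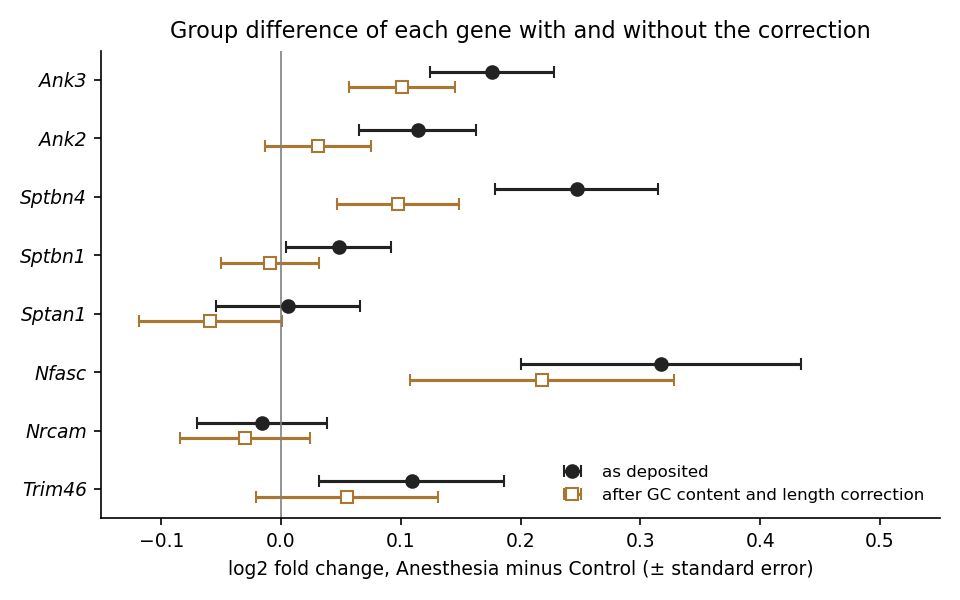
Log2 fold change of each gene with its standard error (x axis, Anesthesia minus Control, 4 mice per group) for the deposited values and after the correction for GC content and transcript length. All 8 values are lower after the correction, and those of Ank3, Sptbn4 and Nfasc remain more than 1 standard error above 0.

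The 10 choroid plexus markers, all found, summed to 86662, 4929, 4595 and 9959 normalized counts in the Anesthesia mice and 4357, 45831, 103496 and 101174 in the Control mice, with Ttr, which encodes transthyretin, the most abundant. Thus 1 Anesthesia mouse (replicate 1) and 3 Control mice (replicates 2 to 4) held much of this RNA. Ttr itself was at 53003, 393.3, 182.2 and 2679 normalized counts in the Anesthesia mice and at 144.8, 24368, 61582 and 61503 in the Control mice. Anesthesia replicate 1 was also the lowest of its group for Ank3, Ank2, Sptbn4 and Sptbn1. Control replicate 1, the Control mouse with little choroid plexus RNA, was the highest of its group for Ank2 and lay among the other Control mice for Ank3, Sptbn4 and Sptbn1. With the marker level as a covariate the log2 fold change was 0.14 for Ank3 (unadjusted p = 0.0284, limma), 0.21 for Sptbn4 (unadjusted p = 0.0182, limma), 0.39 for Nfasc (unadjusted p = 0.01, limma) and 0.08 for Ank2 (unadjusted p = 0.165, limma). The limma adjusted p in that fit was 0.966 for each of these genes. Within the libraries with much choroid plexus RNA (1 Anesthesia mouse, no test) the log2 fold changes were 0.06, 0.10, 0.13 and 0.06 in the same order. Within those with little (1 Control mouse, no test) they were 0.21, 0.31, 0.67 and 0.08.

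Markers of the tissue itself were present in every library. The 8 neuron markers summed to between 57757 and 67978 normalized counts per mouse, with Syt1 the most abundant, and the 6 CA1 pyramidal neuron markers to between 6108 and 7994, led by Mpped1. The 6 dentate granule neuron markers, led by Prox1, were more uneven, from 2688 in Anesthesia replicate 3 to 7916 in Anesthesia replicate 2. The 8 oligodendrocyte markers, led by Mbp, summed to 112008, 116743, 104256 and 177003 in the Anesthesia mice and 92400.3, 118184, 168051 and 152570.3 in the Control mice. Control replicate 1 was lowest and Anesthesia replicate 4 highest both for this sum and for Nfasc, which oligodendrocytes also express. Other mice did not follow this order, Anesthesia replicate 3 being second highest for Nfasc and second lowest for the sum, and Control replicate 3 second highest for the sum with Nfasc at 4981. With the oligodendrocyte marker level as a covariate, an alternative added after the data were seen, the log2 fold change of Nfasc was 0.35 (limma unadjusted p = 0.00403, adjusted p = 0.652). How much of the Nfasc difference belongs to oligodendrocyte content was not tested. Sums ranged from 8157 to 9916 for 7 GABAergic interneuron markers (most abundant Gad1), from 4127 to 5054 for 4 oligodendrocyte precursor markers (Pdgfra) and from 105943 to 121238 for 7 astrocyte markers (Slc1a2). They ranged from 3728 to 4968 for 6 endothelium markers (Slco1a4), from 256.3 to 754.7 for 5 ependyma markers (Foxj1), from 2360.3 to 3728 for 6 thalamus markers (Rora) and from 5066 to 8418 for 5 blood markers (Hbb-bs). Single markers with an unadjusted p under 0.05 (limma) were higher in the Anesthesia group for Rbfox3 (log2 fold change 0.30, the groups not overlapping) and Slc1a2 (0.17) and lower for Gad1 (−0.14), Rarres2 (−0.49), Tcf7l2 (−0.57) and Dcn (−0.62). Each was the only such marker of its list, and the remaining lists had none. Of all genes tested 4.75% were higher and 3.27% lower at that threshold, and 2.81% were higher without overlap. Most astrocyte markers went the other way from Slc1a2, 2 of 7 being higher in the Anesthesia group. Also higher were 6 of 8 neuron, 3 of 6 CA1 pyramidal neuron and 2 of 7 GABAergic interneuron markers. Of the ependyma markers 0 of 5 were higher, and of the thalamus markers 2 of 6. None of the 13 lists had sums that separated the groups, and 0 of the markers were at 0 in all mice.

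Paralogs were then compared within each mouse, because a ratio of 2 genes in 1 library does not depend on how libraries were scaled. The log2 ratio of Sptbn4 to Sptbn1, of segment to axonal β-spectrin, was −3.44, −3.33, −3.22 and −3.36 in the Anesthesia mice and −3.56, −3.59, −3.56 and −3.45 in the Control mice. The groups did not overlap, although Anesthesia replicate 1 and Control replicate 4 almost met. The difference of 0.20 had an exact permutation p of 0.0286, the smallest possible, and 0.0857 after Benjamini-Hochberg adjustment over the 3 ratios. After correction for GC content and length it was 0.11 (exact permutation p = 0.0571, adjusted 0.0857).

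The log2 ratio of Ank3 to Ank2 was −0.86, −0.77, −0.82 and −0.80 in the Anesthesia mice and −0.93, −0.85, −0.86 and −0.86 in the Control mice. Control replicate 1 was low, and Anesthesia replicate 1 lay among the other Control mice. The difference of 0.06 had an exact permutation p of 0.0857 (adjusted 0.114), so a greater change of Ank3 than of its paralog was not established. After the GC content and length correction the difference was 0.07 (exact permutation p = 0.0571, adjusted 0.0857). For Nfasc to Nrcam the ratio was −1.13, −1.25, −0.88 and −0.90 in the Anesthesia mice and −1.80, −1.39, −1.16 and −1.16 in the Control mice. Anesthesia replicates 3 and 4 were highest and Control replicate 1 far the lowest, and the difference of 0.33 did not pass the test (exact permutation p = 0.114, adjusted 0.114), nor did the corrected one of 0.25 (exact permutation p = 0.171, adjusted 0.171). The difference fell to 0.19 without Control replicate 1.

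**Figure D3:**
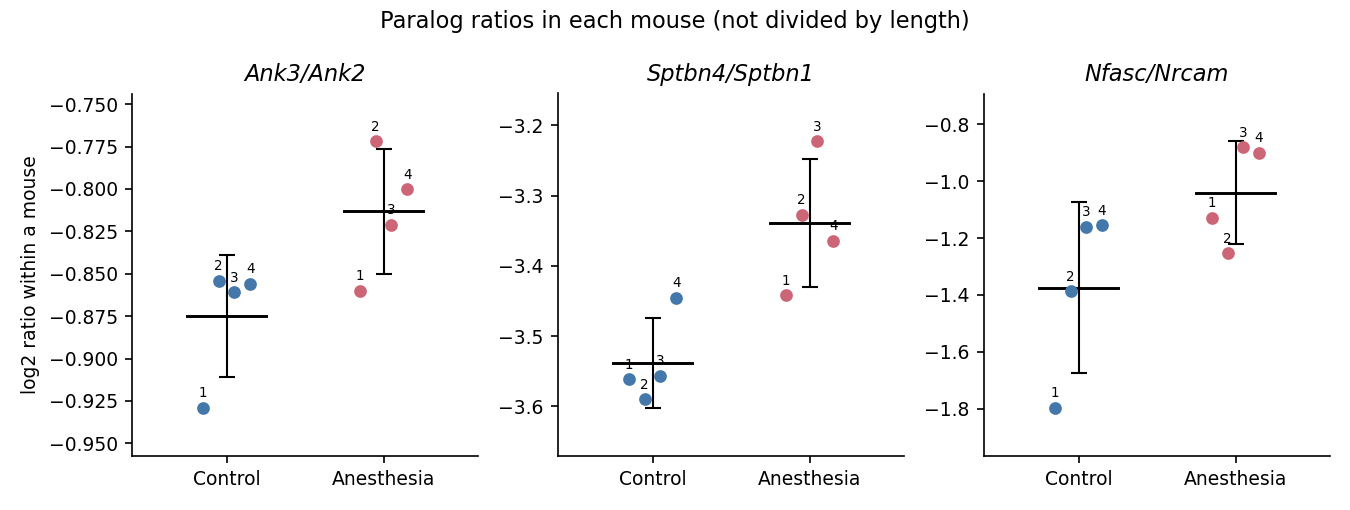
Log2 ratio of normalized counts of a gene to its paralog in each mouse (y axis, not divided by length), with replicate numbers, group means and SD (n = 4 per group). Only Sptbn4/Sptbn1 has groups that do not overlap, from −3.44 upward in the Anesthesia group and from −3.45 downward in the Control group.

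Levels were compared between genes per kilobase of exon, over all 8 mice. Sptan1 stood highest at 2727 ± 139 normalized counts per kilobase (SD, n = 8), followed by its common partner Sptbn1 at 1569 ± 36.2. Nrcam (891.5 ± 38.1) and Ank2 (693.5 ± 36.8) came next, and the ranges of these 4 genes did not touch. Ank3 (388.6 ± 29.5), Nfasc (369 ± 62.7) and Sptbn4 (266 ± 29.8) followed. The ranges of Ank3 and Nfasc overlapped, as did those of Nfasc and Sptbn4. Within single mice Nfasc was above Sptbn4 in 8 of 8, whereas Ank3 was above Nfasc in 4 of 8, so the order of that pair was not resolved on this scale. Trim46 was lowest at 164.8 ± 11.8. The forms found along the axon beyond the segment (Sptbn1, Ank2) were thus above the segment and node forms (Sptbn4, Ank3) in each family on this scale. The order of the 8 genes was the same per kilobase of the longest transcript, but which ranges touched was not. On that scale Nrcam (lowest mouse 1774) and Ank2 (highest 1849) overlapped, with Nrcam above Ank2 in 8 of 8 mice, whereas Ank3 (lowest 1257) and Nfasc (highest 663.7) did not, nor did Nfasc (lowest 379.4) and Sptbn4 (highest 347.5).

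Variation among the mice was shared by some members and not by others. Over the 8 mice, Ank3 correlated on the log2 scale with Sptbn1 (Pearson r = 0.949, Spearman rho = 0.952), Sptbn4 (r = 0.943, rho = 0.929) and Ank2 (r = 0.927, rho = 0.833), less with Nfasc (r = 0.657, rho = 0.524) and Trim46 (r = 0.412, rho = 0.429), and hardly with Sptan1 (r = 0.104, rho = −0.167) or Nrcam (r = −0.093, rho = −0.071). These values describe 8 libraries that also share the group difference, the choroid plexus content and base composition. Among 12241 other genes with a mean of at least 100, those most like Ank3 were Fam193b (r = 0.972), Dscam (r = 0.971), Dusp7 (r = 0.97), Crtc1 (r = 0.97) and Fbxo41 (r = 0.968). Dscam encodes a neuronal adhesion molecule of the immunoglobulin superfamily, Dusp7 a phosphatase of MAP kinases and Crtc1 a coactivator of CREB. Their log2 fold changes were 0.29, 0.20, 0.31, 0.37 and 0.24 in the same order (0.26, 0.13, 0.29, 0.25 and 0.13 after the GC content and length correction), and rho to Ank3 was 0.81, 0.833, 0.976, 0.905 and 0.905.

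Partners of the scaffold were described from 5 lists, in which 70 genes were tested. Of these, 44 had a positive and 26 a negative log2 fold change, against 9285 positive and 9580 negative among all 18865 genes tested. Of the 70, 7 were higher and 0 lower at an unadjusted p under 0.05 (limma), and 0 had an adjusted p under 0.05. Of all genes tested 4.75% were higher at that threshold. After the GC content and length correction 37 of the 70 were positive, against 9007 of the 18865 genes tested. In that fit 4 of the 70 were higher at an unadjusted p under 0.05 (limma), against 3.73% of all genes tested. The lists too were chosen with earlier results of these data known, and the shares are descriptive.

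The 19 ion channels and regulators among them included 14 higher and 5 lower, 3 of them higher at an unadjusted p under 0.05, and had a median log2 fold change of 0.07 (0.06 after the GC content and length correction). Scn8a encodes Nav1.6, the main sodium channel of mature initial segments. It was at 8959.7, 9707, 9569.9 and 9034 normalized counts in the Anesthesia mice and at 8165, 7559.7, 7774 and 7485 in the Control mice. The groups were clearly apart, and with a log2 fold change of 0.27 (SE 0.052, limma adjusted p = 0.565) it ranked 10 of all genes tested by unadjusted p. After the correction it was 0.18 (unadjusted p = 0.00454, limma), with groups still apart.

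Among 18 membrane skeleton partners of spectrin, 10 were higher and 8 lower, 2 of them higher at an unadjusted p under 0.05, and the median was 0.02 (−0.004 to 0.04 with each mouse left out). Epb41l1 encodes protein 4.1N, which joins spectrin to actin in neurons. It ranged from 5906 to 7129 normalized counts in the Anesthesia mice and from 5426 to 5956 in the Control mice (log2 fold change 0.20, SE 0.065, limma adjusted p = 0.62). Myh10 encodes nonmuscle myosin IIB, and its values of 4719 to 5278 in the Anesthesia mice were all above the 4309 to 4499.8 of the Control mice (log2 fold change 0.16, SE 0.053, limma adjusted p = 0.62). After the GC content and length correction 0 genes of this list had an unadjusted p under 0.05, Epb41l1 being at 0.14 (unadjusted p = 0.0524, limma) and Myh10 at 0.10 (unadjusted p = 0.0697, limma), both with overlapping groups. In the opposite direction the groups did not overlap in Actg1, a cytoplasmic actin singled out after its values were seen, with 12911 to 13639 normalized counts in the Anesthesia mice and 13699.8 to 14809 in the Control mice (log2 fold change −0.08, unadjusted p = 0.119, limma). The Anesthesia mice were lower without overlap in 420 of all genes tested (2.23%).

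Of 13 microtubule and TRIM partners, 7 were higher and 6 lower, 2 of them higher at an unadjusted p under 0.05, with a median of 0.12. Trim9, a brain-enriched TRIM family member, ranged from 4440.5 to 5341 normalized counts in the Anesthesia mice and from 4124 to 4453 in the Control mice, with overlap at Anesthesia replicate 1 (log2 fold change 0.18, SE 0.062, limma adjusted p = 0.62). Mtcl1, a microtubule crosslinking factor, was at 674.2, 841, 1464 and 796.9 normalized counts in the Anesthesia mice and at 643.8 to 693.5 in the Control mice. Its log2 fold change of 0.43 (SE 0.193, limma adjusted p = 0.622) came with 1 mouse, Anesthesia replicate 3, far above the rest, and was 0.20 without it. After the GC content and length correction it was 0.32 (unadjusted p = 0.0974, limma), and with the choroid plexus covariate 0.26 (unadjusted p = 0.188, limma). For Trim9 these values were 0.16 (unadjusted p = 0.0212, limma) and 0.13 (unadjusted p = 0.069, limma). The median of the list depended on single mice, being 0.03 without Anesthesia replicate 3, 0.02 without Anesthesia replicate 4, 0.05 without Control replicate 1 and 0.06 without Control replicate 4.

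Of the other ankyrins and spectrins, 4 were measured. All 4 had positive log2 fold changes, with a median of 0.25 (0.14 after the GC content and length correction), and 0 had an unadjusted p under 0.05. Ank1, the erythrocyte ankyrin that neurons also make, ranged from 565.5 to 838.5 normalized counts in the Anesthesia mice and from 457.4 to 699.1 in the Control mice (log2 fold change 0.30, SE 0.149, limma adjusted p = 0.636), and its log2 fold change was 0.19 without Control replicate 1. Sptb, βI-spectrin, had a log2 fold change of 0.20 (SE 0.105, limma adjusted p = 0.66), and Anesthesia replicate 2 (6125 normalized counts) was well above the other mice. Without it the value was 0.08, and with all mice it was 0.08 after the GC content and length correction (unadjusted p = 0.479, limma) and 0.12 (0.115) with the choroid plexus covariate. For Ank1 the correction gave 0.20 (unadjusted p = 0.202, limma) and that covariate 0.45 (limma unadjusted p = 0.00805, adjusted p = 0.966). Without Anesthesia replicate 2 Ank1 was at 0.41 (limma unadjusted p = 0.0133, adjusted p = 0.502).

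The 16 adhesion and matrix molecules of segment, node and paranode included 9 higher and 7 lower, 0 of them at an unadjusted p under 0.05, with a median of 0.01 (−0.023 to 0.055 with each mouse left out). After the GC content and length correction 5 were higher and the median was −0.05. Cntnap1 encodes Caspr, the axonal protein of the paranodal junction, and had a log2 fold change of 0.19 (SE 0.106, limma adjusted p = 0.665). Hapln1, a link protein of the perineuronal matrix, had a log2 fold change of −0.23 (SE 0.138, limma adjusted p = 0.677). In both the groups overlapped. With each mouse left out Cntnap1 ranged from 0.10 to 0.25 and Hapln1 from −0.31 to −0.13. Hapln1 was at −0.33 with the choroid plexus covariate (limma unadjusted p = 0.0463, adjusted p = 0.966). It was at −0.28 with the oligodendrocyte covariate (limma unadjusted p = 0.00951, adjusted p = 0.662). With the replicate block its unadjusted p was 0.0342 (limma, adjusted p = 0.781).

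Map1a, a microtubule-associated protein gene of axons and dendrites, was taken as a reference for the size of large differences and ranked 2 of all genes tested by unadjusted p. It was at 14597, 13502, 15016 and 18953 normalized counts in the Anesthesia mice and at 8611, 10266, 10061 and 10322 in the Control mice, without overlap. Its log2 fold change of 0.65 (SE 0.101, limma adjusted p = 0.381) was over 3 times that of Ank3, and it was 0.54 after the GC content and length correction.

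Promoter sequence was examined because members with an unadjusted p under 0.05 included several that varied together over the mice. RefSeq windows of 300 bases around a transcript start (GRCm38.p6) were matched for 7 members, and Ank3 had no entry. For each, the start closest to the annotated 5′ end of the gene was used, and both strands were searched for GGGCGG, the core of the GC box bound by Sp1 (CCGCCC on the other strand), which 35.7% of 32851 promoter windows of this length hold. It was found in the windows of Sptan1 (4 on the gene's strand and 1 on the other), Sptbn4 (2 and 0), Nrcam (2 and 0) and Nfasc (1 and 0), and not in those of Ank2, Sptbn1 and Trim46. Of all windows matched, however, 1 of 2 for Sptbn1, 1 of 2 for Nfasc and 1 of 3 for Trim46 held it, against 4 of 4 for Sptbn4 and 0 of 4 for Ank2. The count of CpG dinucleotides was 41 in Sptbn4, 37 in Sptan1 and Nrcam, 21 in Ank2, 13 in Trim46, 7 in Nfasc and 2 in Sptbn1, against a median of 7 over all windows. Members with and without the motif were thus found both among those at an unadjusted p under 0.05 and among the rest. The windows of the 3 members at an unadjusted p under 0.05 that have one are shown, on the minus strand of the genome and 5′ to 3′ on the gene's strand, with GGGCGG in capitals: Sptbn4 (chr7:27446540-27446839, GC content 73.7%), Ank2 (chr3:127499066-127499365, 62.7%) and Nfasc (chr1:132707277-132707576, 54.3%). The start used for Sptbn1 lay 48403 bases inside the annotated gene, that of Nfasc 34471 bases, that of Sptbn4 1097 bases, that of Trim46 412 bases and that of Ank2 235 bases.
Sptbn4: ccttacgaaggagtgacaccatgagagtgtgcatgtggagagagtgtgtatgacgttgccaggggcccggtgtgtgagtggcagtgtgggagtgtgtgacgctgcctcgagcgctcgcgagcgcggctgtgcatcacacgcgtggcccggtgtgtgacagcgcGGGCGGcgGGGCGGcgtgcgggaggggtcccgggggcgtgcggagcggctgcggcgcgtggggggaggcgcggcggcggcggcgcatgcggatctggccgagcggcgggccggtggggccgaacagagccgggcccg
Ank2: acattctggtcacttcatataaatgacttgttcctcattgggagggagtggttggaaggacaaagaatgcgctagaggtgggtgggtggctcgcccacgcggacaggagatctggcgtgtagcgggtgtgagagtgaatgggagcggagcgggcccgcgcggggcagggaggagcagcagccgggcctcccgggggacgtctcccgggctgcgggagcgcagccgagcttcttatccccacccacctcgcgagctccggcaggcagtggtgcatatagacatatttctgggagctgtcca
Nfasc: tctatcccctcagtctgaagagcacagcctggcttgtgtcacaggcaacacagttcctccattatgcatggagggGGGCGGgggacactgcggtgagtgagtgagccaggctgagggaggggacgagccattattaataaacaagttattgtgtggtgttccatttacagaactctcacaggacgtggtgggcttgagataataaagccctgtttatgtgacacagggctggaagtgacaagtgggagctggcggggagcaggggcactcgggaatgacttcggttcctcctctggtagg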

How the data were processed

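The authors estimated transcript abundance from hippocampal reads with Salmon (version 1.1.0, GC bias correction) on GRCm38, summarised it per gene with tximport and normalized it with DESeq2 (version 1.30.1), so the deposited values are a normalized signal, 1 column per mouse, and not read counts. Between 45.9% and 68.3% of low values per library came within 0.1 of whole reads, too few to recover counts, and count models were not used. The labels and the study's methods name different library kits, and whether counting used strand is not given in the sources used here.

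Members and gene lists were chosen with earlier results of these data known. Values were compared with limma (version 3.58.1, R version 4.3.3) on log2(value + 1), with a trend of variance on mean and no covariates, after 1937 genes with a mean under 10 had been left out; p-values were adjusted by Benjamini-Hochberg with a threshold of 0.05. Single genes and paralog ratios were also compared by two-sided exact permutation over mice. The procedure was checked on simulated data. Positions, GC content and lengths came from GENCODE M21. The GC content and length correction was a loess fit per library (span 0.3). Beyond the members, genes named are the 2 with the smallest unadjusted p in each of 5 lists, the 5 most correlated with Ank3, Map1a as a reference gene, markers, genes that overlap members, and a few singled out after their values were seen. A few results under this rule are not reported here. Alternatives were other scalings, limma voom, other filters, a pseudocount of 0.1, the replicate block, that correction, a choroid plexus covariate, a threshold of 0.10 and leaving out single mice. An oligodendrocyte covariate, subsets of libraries by choroid plexus level and counts at an unadjusted p were added after the data were seen.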

Additional observations from a re-analysis of the deposited data

Results flagged for a closer look

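In 22 groups of 4 mice (the 8 genes and the 3 paralog ratios in each group), 2 were flagged for a mouse far from its nearest neighbour. That distance took up 0.85 and 0.9 of the range of the group, and groups with a smaller share were not flagged. Chance flags about 1 in 20 such groups. Trim46 in Anesthesia replicate 4 was 580.2 normalized counts, below the 663 to 677.6 of the other Anesthesia mice, and without this mouse the log2 fold change was 0.16 (unadjusted p = 0.0619, limma). The log2 ratio of Ank3 to Ank2 in Control replicate 1 was −0.93 (−0.929), below the other Control mice at −0.86 to −0.85.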

How the results depend on the processing

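Under every scaling, filter, pseudocount, weighting and covariate tried, limma called 0 genes, except that without Control replicate 1 it called 2 (0 to 2 with each mouse left out). These were mt-Nd4l and Gm10222, named after their values were seen. At an adjusted p under 0.10 the comparison as first planned also called 0, and with the oligodendrocyte covariate Map1a had an adjusted p of 0.0826. Genes at an unadjusted p under 0.05 numbered 1061 to 2022 with each mouse left out (1061 without Anesthesia replicate 3), 863 with the choroid plexus covariate and 945 with the GC content and length correction and replicate block. Scaling to library total gave 51.2% and upper quartile scaling 65.5% of them higher in the Anesthesia group, against 59.3%. The number of members at that threshold was 4, was 1 with the GC content and length correction (Ank3, unadjusted p = 0.0451, with Nfasc at 0.0751) and 1 with the replicate block added (Nfasc, 0.0422, with Ank3 at 0.0872), and ranged from 2 to 4 with each mouse left out, being 2 without Anesthesia replicate 3 or 4.

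Ank3, Ank2, Sptbn4, Nfasc and Trim46 kept a positive log2 fold change under all alternatives, with each mouse left out at 0.16 to 0.22 (0.155 to 0.215), 0.09 to 0.14, 0.20 to 0.29, 0.21 to 0.39 and 0.07 to 0.16. In the 4 libraries with much choroid plexus RNA (1 Anesthesia mouse, no test) these values were 0.06, 0.06, 0.10, 0.13 and 0.16, and in the 4 with little (1 Control mouse) 0.21, 0.08, 0.31, 0.67 and 0.06. Sptan1 turned negative with scaling to library total (−0.002), limma voom (−0.002), the GC content and length correction (−0.059, the same with the replicate block), the choroid plexus covariate (−0.031), the oligodendrocyte covariate (−0.004) and in libraries with little choroid plexus RNA (−0.072), and was −0.038 to 0.035 with each mouse left out. Sptbn1 turned negative (−0.009) with that correction, with or without the replicate block. Nrcam was −0.051 to 0.018 with each mouse left out and 0.022 in libraries with much choroid plexus RNA. The causes were not tested.

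The Ank3/Ank2 difference was 0.044 to 0.077 and the Sptbn4/Sptbn1 difference 0.16 to 0.234 with each mouse left out (Nfasc/Nrcam 0.193 to 0.407), and Ank3/Ank2 and Sptbn4/Sptbn1 passed the threshold without Anesthesia replicate 1 (0.077 and 0.234, exact permutation p adjusted over the 3 ratios 0.0429). Per kilobase of the longest transcript, Sptan1 was at 4545, Sptbn1 at 3014, Nrcam at 1898, Ank2 at 1697, Ank3 at 1359, Nfasc at 536 and Trim46 at 192.2, higher by construction. Pairing of mice by replicate number was not evident (correlations of deviations −0.242, −0.109, −0.182 and 0.019 for numbers 1 to 4), and the sample titles do not say whether it exists. The replicate block left 1084 genes and 3 members with an unadjusted p under 0.05, and 0 with an adjusted p under 0.05.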
